A study of Sus scrofa with 12 samples.

Results

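Heat shock proteins and their partner chaperones were examined in porcine oviduct epithelial cells: the HSP70, HSP110 and HSP90 families, the small heat shock proteins, the J-domain proteins, the BAG proteins, the chaperonins and the heat shock factors. Members were taken by gene symbol from the deposited table, except HSPA5 and DNAJB9 of the endoplasmic reticulum, which the rule left out. The rule gave 71 of 30461 gene rows, each with a symbol of its own. Not all members are proteins of the cytosol. As textbook background, 5 belong to mitochondria (HSPD1, HSPE1, DNAJA3, DNAJC11 and DNAJC15) and DNAJB13 to motile cilia and sperm tails. Others belong to the endoplasmic reticulum, among them HSPA13, DNAJB11, DNAJC1, DNAJC10 and the membrane proteins DNAJB12 and DNAJB14. A test was possible for 64 members. The other 7 did not pass the filter on low counts (HSPA12A, HSPA12B, HSPB3, HSPB9, DNAJB8, CCT8L2 and HSF5). DNAJB8 and HSPB3 among them had a count of 0 in all 12 libraries, which allows up to 3 counts per library. HSPA1A, HSPA1B, BAG3, DNAJB4 and CCT8 were not analysed here.

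The samples belong to a protocol that makes spheroids, which are 3-dimensional cell clusters, from pig oviduct epithelium in quantity and at an even size. Bulk 3′ mRNA sequencing covered 3 groups of 4 libraries: scraped single cells (fresh cells here), spheroids formed in DMEM/F12 and spheroids formed in what the labels name Incubation Medium. Names of the libraries include FBS for spheroids in DMEM/F12 and Diff for those in Incubation Medium. The labels explain neither name and give no recipe, culture time, breed or age of the pigs. They do not state whether the 4 replicates come from separate animals, so the p-values measure the spread between these libraries, which may be technical. Total gene counts were 5045187 to 6026881 in fresh cells, 7583552 to 8068187 in DMEM/F12 and 7585780 to 8603774 in incubation medium. Every spheroid library was deeper than every fresh one (two-sided exact permutation test, p = 0.0286 in each medium, the smallest that 4 against 4 can give). Libraries labelled epithelial held epithelial markers (EPCAM, KRT8, KRT18 and CDH1) at 2255 to 2512 CPM in sum in fresh cells, 3520 to 3955 in DMEM/F12 and 3220 to 5075 in incubation medium spheroids. CPM are counts scaled to a common library size, with sizes adjusted by the TMM method. The epithelial markers did not all follow their sum. EPCAM averaged 904, 628 and 715 CPM in the 3 groups and CDH1 399, 1212 and 606 CPM. Means of KRT8 and KRT18 were higher in both media than in fresh cells. In bulk samples, fewer cells of a type and less RNA per cell cannot be told apart.

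Chaperones bind proteins that are unfolded or still folding and keep them from aggregating. HSP70 proteins do so in cycles of ATP hydrolysis: J-domain proteins bring the client and start hydrolysis, nucleotide exchange factors such as HSP110 and BAG proteins release it, and HSP90 or the barrel-shaped chaperonins can take it over. Heat, oxidative damage or other stress frees heat shock factor 1 to switch on a core set of these genes, while other members are made at all times. In the oviduct, chaperones of the HSP70 and HSP90 families are known both in the epithelium and in the fluid around gametes and embryos.

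The members' transcripts made up 2.90% ± 0.283 (SD, n = 4) of the gene counts in fresh cells, 0.981% ± 0.0431 in DMEM/F12 and 0.950% ± 0.0626 in incubation medium spheroids. The lowest fresh cell library, at 2.62%, stood above the highest spheroid library, at 1.02%. HSP70 and HSP110 genes went from 0.777% ± 0.0791 in fresh cells to 0.130% ± 0.00653 and 0.126% ± 0.0190 in the spheroids of the 2 media. J-domain A and B genes went from 0.595% ± 0.0755 to 0.0811% ± 0.00327 and 0.0737% ± 0.00719. The small heat shock proteins held 0.680% ± 0.125, 0.216% ± 0.0223 and 0.0788% ± 0.0110, so that their share differed between the media as well. The cytosolic chaperonin went the other way, from 0.115% ± 0.00763 to 0.154% ± 0.00638 and 0.176% ± 0.0151. These shares are descriptions with no test.

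**Figure D1:**
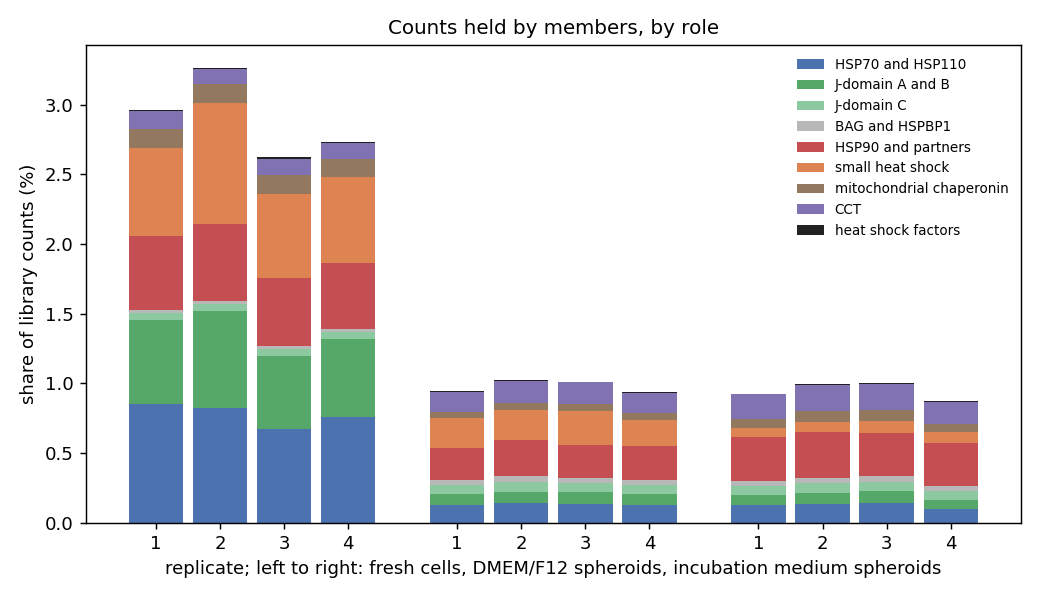
Share of each library's gene counts (%) held by the members, stacked by role, with replicates 1 to 4 of fresh cells, DMEM/F12 spheroids and incubation medium spheroids from left to right. Fresh cell bars reach 2.62 to 3.26%, against 0.941 to 1.02% and 0.872 to 1.01% in the spheroids.

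Members changed in both directions. In DMEM/F12 spheroids against fresh cells, 26 of 64 tested members were called higher (40.6%, against 35.1% of all 14070 tested genes) and 27 lower (42.2%, against 35.7%). Calls rest on an adjusted p under 0.05 in edgeR. At least 2-fold changes were called upward in 7 members (10.9%, against 15.1%) and downward in 16 (25.0%, against 20.3%). In incubation medium spheroids, 31 members were higher (48.4%, against 35.8%) and 25 lower (39.1%, against 35.8%), of which 7 and 17 by at least 2-fold (10.9% and 26.6%, against 15.3% and 21.5%). These shares lay within a few points of the background, apart from the higher calls in incubation medium, and the differences were not tested. The members' median log2 fold change was 0.15 in DMEM/F12 and 0.25 in incubation medium, beside -0.014 and -0.0071 over all tested genes. These comparisons share the fresh cell libraries.

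Known targets of heat shock factor 1 were nearly all lower in the spheroids, and most other members were not. Of 18 such symbols listed, 14 had a row and were tested. All 14 were lower in DMEM/F12 spheroids (100%, against 35.7% of all tested genes), with a median log2 fold change of -1.81. At least 2-fold falls were called in 10 of them (71.4%, against 20.3%). In incubation medium 12 of the 14 were lower (85.7%, against 35.8%), 10 by at least 2-fold (71.4%, against 21.5%), and the median was -1.79. HSP90AB1 was higher there and STIP1 was not called. Of the 50 tested members outside that list, 26 were higher and 13 lower in DMEM/F12 spheroids, with a median of 0.32. These are 52% and 26%, against 35.1% and 35.7% of all tested genes. In incubation medium 30 were higher and 13 lower (60% and 26%, against 35.8% in each direction), with a median of 0.36. The list was drawn up with earlier results known, so these counts describe it and carry no test.

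Immediate early genes, which cells switch on within minutes of handling or stimulation, moved with this group. All 9 tested rows of that list (FOS, JUN, EGR1, ATF3 and others) were lower in both kinds of spheroid, with a summed level of 26871 to 37388 CPM in fresh cells, 817 to 945 in DMEM/F12 and 706 to 775 in incubation medium spheroids. Their part in the heat shock result was not tested.

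**Figure D2:**
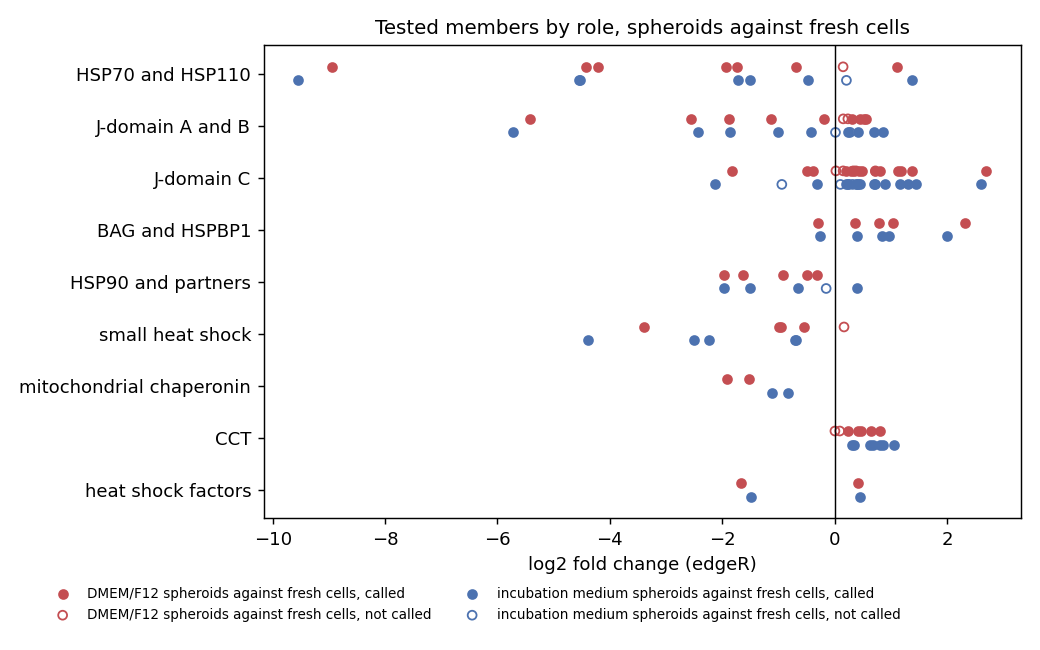
Log2 fold change (edgeR) of each tested member against fresh cells, in rows by role, for DMEM/F12 spheroids (red) and incubation medium spheroids (blue). Filled points passed an adjusted p of 0.05 and open points did not. The HSP90, small heat shock and mitochondrial chaperonin rows lie mostly left of 0, from -4.39 to 0.40, and all called CCT points lie right of it.

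HSP70 chaperones and their HSP110 partner fell in 6 of 8 tested members in each medium, and 1 member rose. These are 75% and 12.5%, against 35.1 to 35.8% of all tested genes called in each direction. HSPA6 (ENSSSCG00025047132) encodes a strictly stress-inducible HSP70 that resting cells hardly make. It stood at 3573, 3262, 2494 and 3003 CPM in fresh cells (replicates 1 to 4, the order used throughout), at 4.38, 6.04, 7.41 and 7.08 CPM in DMEM/F12 spheroids and at 2.86, 4.94, 4.43 and 4.30 CPM in incubation medium spheroids. Every fresh cell library lay far above every spheroid library. The groups differed by 495-fold in DMEM/F12 (log2 fold change -8.95, SE 0.20, adjusted p = 9.6e-13) and by 746-fold in incubation medium (log2 fold change -9.54, SE 0.21, adjusted p = 6.61e-13). Between the media HSPA6 narrowly missed the threshold (log2 fold change -0.59 with adjusted p = 0.0505), and the alternatives gave adjusted p = 0.0165 to 0.141. It was called lower with library totals (-0.68, adjusted p = 0.0165), DESeq2 (-0.60, adjusted p = 0.0256) and upper quartile scaling (-0.61, adjusted p = 0.0386). So it was with RLE scaling (-0.59, adjusted p = 0.0483), no filter (-0.60, adjusted p = 0.0414) and a stricter filter (-0.60, adjusted p = 0.0474). Leaving out DMEM/F12 replicate 1 also gave a call (-0.73, adjusted p = 0.0176). The other alternatives that tested HSPA6 left it uncalled. Its counts were not whole in 66.7% of libraries, as when reads are divided among features. How many of its reads were divided is not known, so its level is uncertain.

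HSPH1 (ENSSSCG00025040850), the HSP110 that recharges HSP70 with ATP and helps it dissolve aggregates, had whole counts in every library. It stood at 1389, 1535, 1209 and 1275 CPM in fresh cells, 64.3, 68.3, 63.9 and 54.3 in DMEM/F12 and 63.2, 65.0, 61.0 and 44.3 in incubation medium spheroids. Its fall was 21.6-fold (log2 fold change -4.43, SE 0.14, adjusted p = 9.9e-12) and 23.1-fold (log2 fold change -4.53, SE 0.14, adjusted p = 8.98e-12), and all spheroid libraries lay below all fresh ones. HSPA8 (ENSSSCG00025017275), the constitutive HSC70 of the cytosol, stood at 3625, 3519, 2691 and 2949 CPM, 875, 995, 1006 and 945 CPM and 959, 1040.1, 1101 and 772 CPM in the 3 groups. It was thus lower by 3.35-fold and 3.30-fold (log2 fold change -1.74, SE 0.12, adjusted p = 1.76e-08, and log2 fold change -1.72, SE 0.12, adjusted p = 1.92e-08), with no overlap.

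The testis-rich relative HSPA1L fell from 23.6 ± 2.49 to 1.25 ± 0.416 and 0.995 ± 0.341 CPM (SD, n = 4; log2 fold change -4.22 with adjusted p = 1.25e-09 and -4.55 with adjusted p = 8.56e-10). It was named after its values were seen, and its counts were not whole in 58.3% of libraries. The HSP110 relative HSPA4L averaged 51.7, 13.6 and 18.3 CPM (log2 fold change -1.93 with adjusted p = 4.51e-07 and -1.50 with adjusted p = 4.32e-06), and HSPA13 of the endoplasmic reticulum 77.2, 47.9 and 55.5 CPM (-0.69 with adjusted p = 2.73e-05 and -0.48 with adjusted p = 0.000664). HSPA4, a constitutive HSP110, was at 119, 132 and 138 CPM and was not called (adjusted p = 0.214 and 0.0888). HSPA4L differed between the media with the replicate block (0.42, adjusted p = 0.0402) and without incubation medium replicate 4 (0.58, adjusted p = 0.0267), and otherwise missed the threshold (0.43 with adjusted p = 0.118). In incubation medium HSPA4 passed without fresh replicate 1 (0.29, adjusted p = 0.03) or without incubation medium replicate 4 (0.31, adjusted p = 0.0151).

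HSPA14, the HSP70 that sits with a J-domain partner on ribosomes, was the family's exception. It rose from 18.8, 19.0, 15.3 and 15.7 CPM in fresh cells to 33.5, 38.8, 39.4 and 36.5 in DMEM/F12 and 42.0, 47.1, 49.2 and 40.8 in incubation medium spheroids, 2.15-fold and 2.60-fold (log2 fold change 1.10, SE 0.11, adjusted p = 4.02e-07, and log2 fold change 1.38, SE 0.11, adjusted p = 4.23e-08). Between the media it was not called (0.27 with adjusted p = 0.0522), but with the replicate number as a block it was (0.27, adjusted p = 0.0306). It was likewise called without incubation medium replicate 4 (0.32, adjusted p = 0.0373) and in a fit of only the groups compared (0.27, adjusted p = 0.0491).

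**Figure D3:**
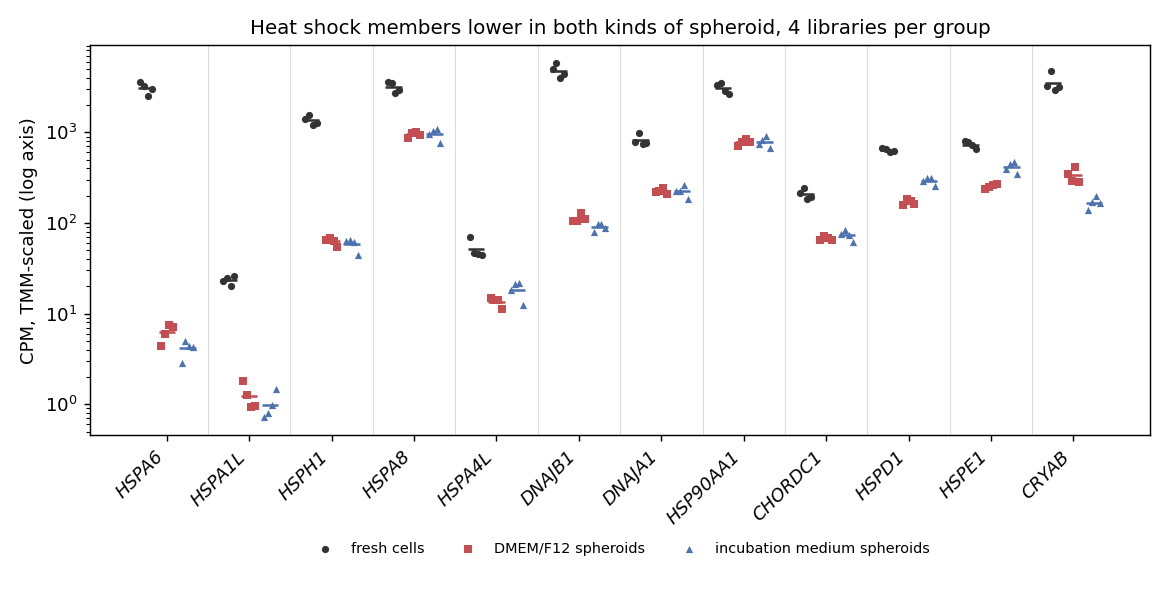
CPM (TMM-scaled, log axis) of 12 members lower in both kinds of spheroid, 1 point per library and a bar at the mean of each group of 4: fresh cells (black circles), DMEM/F12 (red squares) and incubation medium spheroids (blue triangles). For all 12 the 4 fresh cell points lie above the 8 spheroid points.

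J-domain proteins, which deliver clients to HSP70, changed in both directions. Of 11 tested A and B members, 4 rose and 5 fell in each medium (36.4% and 45.5%, near the 35.1 to 35.8% of all tested genes called in each direction). Of 19 C members, 11 rose and 3 fell in DMEM/F12 (57.9% and 15.8%), and 13 rose and 2 fell in incubation medium (68.4% and 10.5%). The difference between the classes was not tested. DNAJC8 passed narrowly (0.20 with adjusted p = 0.0498 and 0.21 with adjusted p = 0.0386). Its call was lost in DMEM/F12 without any single library of the 8 but DMEM/F12 replicate 1. In incubation medium it was lost without any 1 fresh replicate or incubation medium replicates 2 or 3. DNAJC4 was called in incubation medium (0.38 with adjusted p = 0.0467), but not without any 1 of fresh replicates 1, 2 and 3 and incubation medium replicates 1 and 4. DNAJB1 (ENSSSCG00025041331), the inducible HSP40 that drives HSP70 in the heat shock response, stood at 5056, 5813, 3938 and 4384 CPM in fresh cells. In DMEM/F12 spheroids it was at 106, 104, 130.1 and 110.1 CPM and in incubation medium spheroids at 80.2, 98.6, 96.4 and 87.0. All spheroid libraries lay below all fresh ones, and the groups differed by 42.7-fold (log2 fold change -5.41, SE 0.14, adjusted p = 3.1e-12) and 53.0-fold (log2 fold change -5.73, SE 0.15, adjusted p = 2.07e-12).

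DNAJA1, a farnesylated type A partner of HSC70, was at 776, 989, 745 and 765 CPM, then 218, 223, 244 and 211 and 224, 228, 265 and 182 CPM. Fresh replicate 2 was the highest of its group, and no spheroid library reached any fresh one, a fall of 3.66-fold and 3.64-fold (log2 fold change -1.87, SE 0.12, adjusted p = 8.03e-09, and log2 fold change -1.86, SE 0.12, adjusted p = 7.98e-09). DNAJB2, known from neurons, averaged 28.8, 13.1 and 14.3 CPM (log2 fold change -1.14 with adjusted p = 7.1e-05 and -1.01 with adjusted p = 0.000202). DNAJB6, which suppresses aggregation of polyglutamine proteins, was called lower in incubation medium against fresh cells (-0.43 with adjusted p = 0.000288). Its smaller difference in DMEM/F12 (-0.19 with adjusted p = 0.0443) was lost without any single library of the 8 but fresh replicate 4, at -0.15 to -0.20.

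DNAJB13, a component of the radial spokes of motile cilia, was at 44.7, 37.7, 43.9 and 40.8 CPM in fresh cells, 11.4, 7.09, 4.37 and 5.28 in DMEM/F12 and 11.5, 8.28, 4.68 and 6.31 in incubation medium spheroids. The fall was called in each medium (log2 fold change -2.56, SE 0.27, adjusted p = 9.66e-07, and log2 fold change -2.44, SE 0.27, adjusted p = 1.46e-06) without overlap. Markers of multiciliated cells moved the same way. All 4 that were tested of 8 listed symbols were lower, with a summed level of 984 to 1115 CPM in fresh cells, 114 to 292 in DMEM/F12 and 107 to 205 in incubation medium, and none was at 0. Their part in the DNAJB13 result was not tested.

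Among the A and B members that rose, DNAJA2 of the cytosol averaged 52.4, 77.7 and 85.02 CPM (log2 fold change 0.57 with adjusted p = 5.74e-05 and 0.70 with adjusted p = 7.73e-06). DNAJA3, the mitochondrial partner of HSP70, rose from 23.9 ± 1.63 to 32.6 ± 3.36 and 43.6 ± 3.57 CPM (SD, n = 4; 0.45 with adjusted p = 0.00105 and 0.87 with adjusted p = 2.33e-06). DNAJB5 was called higher in DMEM/F12 only by a narrow margin (0.52 with adjusted p = 0.0197), and the call was lost without fresh replicate 3 (0.46, adjusted p = 0.0561), fresh replicate 4 (0.43, adjusted p = 0.0633) or DMEM/F12 replicate 3 (0.40, adjusted p = 0.0616). DNAJB11, an endoplasmic reticulum J protein, was not called in either medium (log2 fold change 0.24 with adjusted p = 0.181 and 0.28 with adjusted p = 0.119). Without fresh replicate 1 it passed in both (0.44, adjusted p = 0.0064, and 0.48, adjusted p = 0.00355), and in incubation medium also without incubation medium replicate 4 (0.38, adjusted p = 0.0443).

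DNAJC5 (ENSSSCG00025068935), the cysteine string protein that guards the machinery of vesicle release, had the largest rise of all tested members in each medium. It stood at 7.83, 10.4, 11.2 and 8.62 CPM in fresh cells, 52.9, 76.3, 60.6 and 57.3 in DMEM/F12 and 57.5, 57.7, 57.8 and 60.2 in incubation medium spheroids. It was thus 6.49-fold and 6.12-fold higher (log2 fold change 2.697, SE 0.14, adjusted p = 9.67e-10, and log2 fold change 2.61, SE 0.14, adjusted p = 1.19e-09), and the groups did not overlap. DNAJC15, of the inner mitochondrial membrane, rose from 21.9, 19.4, 20.4 and 20.4 CPM to 39.7, 47.2, 54.6 and 45.9 and 52.0, 63.5, 59.7 and 48.1 CPM (edgeR log2 fold change 1.19, SE 0.12, adjusted p = 5.5e-07, and log2 fold change 1.44, SE 0.12, adjusted p = 7.7e-08). Its difference between media missed the threshold (0.25 with adjusted p = 0.102), and passed without DMEM/F12 replicate 3 (0.34, adjusted p = 0.0395) or incubation medium replicate 4 (0.32, adjusted p = 0.0475).

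DNAJC9, a J protein that also holds histones, was at 11.8, 13.6, 13.6 and 13.3 CPM in fresh cells, 19.1, 23.0, 23.8 and 20.5 in DMEM/F12 and 28.4, 29.9, 32.5 and 26.6 in incubation medium spheroids, so that the 3 groups stood in steps without overlap (0.72 with adjusted p = 3.93e-05 and 1.16 with adjusted p = 3.08e-07 against fresh cells). DNAJC13, which works on endosomes, averaged 16.8, 29.5 and 27.3 CPM (0.82 with adjusted p = 1.81e-05 and 0.70 with adjusted p = 7.51e-05). DNAJC27, a small GTPase with a J domain, had the lowest fold change of the C class, -1.82 (adjusted p = 1.65e-05) in DMEM/F12 and -2.12 (adjusted p = 4.93e-06) in incubation medium. The other C member lower in incubation medium was DNAJC21, which serves ribosome assembly (-0.32 with adjusted p = 0.0371). Its call was lost without any 1 of fresh replicates 1 and 2 and incubation medium replicates 1, 2 and 4, at -0.24 to -0.31.

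BAG proteins and HSPBP1, nucleotide exchange factors which release clients from HSP70, rose in 4 of 5 tested members in each medium. That is 80%, against 35.1% and 35.8% of all tested genes called higher. The HSP110 exchange factors, described above with the HSP70 family, did not rise: HSPH1 and HSPA4L fell and HSPA4 was not called. BAG1, which couples HSP70 to the proteasome and to survival signalling, went from 92.2, 88.6, 72.4 and 86.4 CPM in fresh cells to 172, 180.0, 182 and 165 and 169, 176, 176 and 143 CPM, without overlap (log2 fold change 1.04, SE 0.09, adjusted p = 2.19e-07, and log2 fold change 0.97, SE 0.09, adjusted p = 4.42e-07). HSPBP1, a cytosolic exchange factor, averaged 30.1, 51.9 and 54.1 CPM (log2 fold change 0.79 with adjusted p = 7.33e-06 and 0.85 with adjusted p = 3.38e-06). BAG2, an inhibitor of the ubiquitin ligase CHIP, went from 2.52 ± 1.79 to 12.9 ± 1.32 and 10.2 ± 1.54 CPM (SD, n = 4; 2.33 with adjusted p = 9.62e-06 and 2.00 with adjusted p = 4.7e-05), and BAG6, a quality control factor for membrane proteins, had log2 fold changes of 0.37 (adjusted p = 0.000767) and 0.40 (adjusted p = 0.000391). BAG4, a silencer of death domains, was the member that fell (-0.30 with adjusted p = 0.0152 and -0.26 with adjusted p = 0.029). In incubation medium its call was lost without any 1 of fresh replicates 2 and 3 and incubation medium replicates 2, 3 and 4, at -0.20 to -0.26.

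HSP90 and the co-chaperones taken with it fell in all 5 members in DMEM/F12 spheroids, and in 3 of 5 in incubation medium. These are 100% and 60%, against 35.7% and 35.8% of all tested genes called lower. HSP90AA1 (ENSSSCG00025026657), the stress-inducible cytosolic HSP90, stood at 3337, 3483, 2855 and 2622 CPM in fresh cells, 710.4, 785, 840.1 and 791 in DMEM/F12 and 745, 822, 905 and 679 in incubation medium spheroids. It was 3.93-fold and 3.90-fold lower without overlap (log2 fold change -1.98, SE 0.11, adjusted p = 2.76e-09, and log2 fold change -1.96, SE 0.11, adjusted p = 2.86e-09), and it did not pass between the media (0.01 with adjusted p = 0.957).

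HSP90AB1 (ENSSSCG00025042198), the constitutive copy, did otherwise. It was at 1620.2, 1680.5, 1484 and 1635 CPM in fresh cells, 1214, 1401, 1279 and 1299.6 in DMEM/F12 and 2144, 2158, 1902 and 2293 in incubation medium spheroids, below every fresh library in the first medium and above every one in the second. The change against fresh cells was -0.31 in DMEM/F12 (SE 0.08, adjusted p = 0.00292) and 0.40 in incubation medium (adjusted p = 0.00033), and the direct difference between the media was 0.71 (adjusted p = 2.87e-05).

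CHORDC1, a zinc-binding HSP90 partner, fell from 213, 242, 186 and 193 CPM to 64.2, 71.8, 68.0 and 65.2 and 75.4, 82.8, 72.9 and 61.4 CPM (edgeR log2 fold change -1.63, SE 0.10, adjusted p = 8.65e-09, and log2 fold change -1.51, SE 0.10, adjusted p = 1.64e-08). AHSA1, the activator of the HSP90 ATPase, averaged 199 ± 19.7, 105 ± 12.2 and 127 ± 15.9 CPM (SD, n = 4; log2 fold change -0.91 with adjusted p = 4.7e-06 and -0.64 with adjusted p = 0.000122). Between the media AHSA1 was not called (0.27 with adjusted p = 0.0923), but it was with the replicate number as a block (0.27, adjusted p = 0.0204) and without incubation medium replicate 4 (0.36, adjusted p = 0.0232). STIP1, the bridge between HSP70 and HSP90, stood at 137, 135, 115 and 99.2 CPM, 82.1, 93.3, 92.1 and 78.5 CPM and 102, 116, 117 and 104 CPM, with counts not whole in 83.3% of libraries. It was lower in DMEM/F12 (-0.49 with adjusted p = 0.000803), while in incubation medium it was not called (-0.15 with adjusted p = 0.216) unless fresh replicate 4 was left out (-0.23, adjusted p = 0.0433) or upper quartile scaling was used (-0.25, adjusted p = 0.0397).

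Small heat shock proteins, which hold unfolding proteins without using ATP, fell in 4 of 5 tested members in DMEM/F12 and in all 5 in incubation medium. These are 80% and 100%, against 35.7% and 35.8% of all tested genes called lower. They also separated the media: 4 of the 5 were lower in incubation medium than in DMEM/F12 (80%, against 12.3%). CRYAB (ENSSSCG00025042507), alpha-B crystallin, stood at 3282, 4752, 2897 and 3148 CPM in fresh cells, 349.8, 293, 414 and 285 in DMEM/F12 and 139, 169, 197 and 166 in incubation medium spheroids. These are 3 levels without overlap, 10.5-fold lower in DMEM/F12 (log2 fold change -3.39, SE 0.18, adjusted p = 1.25e-09) and 21.0-fold lower in incubation medium (log2 fold change -4.39, SE 0.18, adjusted p = 1.82e-10), with -0.997 between the media (adjusted p = 0.000573).

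HSPB1 (ENSSSCG00025073097), the HSP27 that also protects actin filaments, was at 2706, 3853, 2545 and 2397 CPM, 1332, 1503, 1681 and 1314 CPM and 401, 499, 563 and 569 CPM, again in 3 steps. The log2 fold change was -0.98 (adjusted p = 4.49e-05) in DMEM/F12, -2.50 (adjusted p = 7.39e-09) in incubation medium and -1.52 (adjusted p = 1.46e-05) between the media. HSPB8, which works with BAG3 in clearing damaged filaments, was at 602, 365, 462 and 501 CPM, 281, 165, 338 and 216 CPM and 108, 71.0, 151 and 78.6 CPM. All its incubation medium libraries lay below all DMEM/F12 libraries, and so did all its DMEM/F12 libraries below the fresh ones (-0.95 with adjusted p = 0.00315, -2.24 with adjusted p = 2.37e-06 and -1.29 with adjusted p = 0.00192 in the same order).

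HSPB2 and HSPB6, both muscle-rich, were the other tested members. HSPB2 averaged 39.8, 27.1 and 24.4 CPM (-0.55 with adjusted p = 0.000415 and -0.70 with adjusted p = 5.06e-05), and HSPB6 averaged 11.6, 13.03 and 7.25 CPM. HSPB6 was not called in DMEM/F12 (0.17 with adjusted p = 0.383), but was lower in incubation medium than in fresh cells (-0.68 with adjusted p = 0.00314) and than in DMEM/F12 (-0.85 with adjusted p = 0.00235). CRYAB and HSPB2 are neighbouring genes in the pig RefSeq annotation (Sscrofa11.1), and whether the counting used strand is not given in the sources used here. Smooth muscle cells are rich in these proteins. Of the 7 smooth muscle symbols listed, 5 had a row: summed, they stood at 256 to 376 CPM in fresh cells, 1061 to 1211 in DMEM/F12 and 243 to 552 in incubation medium, most of it TAGLN. DES was at 0 in every fresh cell library and ACTA2 at 0.348 to 2.35 CPM there. Of the 4 tested symbols, 1 was higher and 2 were lower than in fresh cells in each medium. Stromal markers summed to 1432 to 1943, 41.0 to 110 and 13.3 to 16.7 CPM in the 3 groups. Most of the fresh cell sum was MGP, at a mean of 1612 CPM. Against fresh cells 3 of 5 tested were lower in DMEM/F12 and 5 of 5 in incubation medium. COL1A1 and PDGFRA were not called in DMEM/F12 (-0.50 with adjusted p = 0.32 and 0.67 with adjusted p = 0.129). Between the media 3 of 5 were lower in incubation medium than in DMEM/F12. The part of these smooth muscle and stromal markers in the small heat shock protein result was not tested.

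The mitochondrial chaperonin and its lid were lower in spheroids of both media, and less so in incubation medium. HSPD1 (ENSSSCG00025033536), the HSP60 barrel, stood at 676, 652, 602 and 625 CPM in fresh cells, 159.6, 184, 173 and 163 in DMEM/F12 and 293, 312, 315 and 256 in incubation medium spheroids. HSPE1 (ENSSSCG00025033361), the HSP10 lid, stood at 795, 773, 719.7 and 649, 235, 247, 265 and 272 and 396, 450.2, 467 and 348 CPM. For each gene the 3 groups were apart, with fresh cells highest and DMEM/F12 spheroids lowest. HSPD1 changed by -1.91 (adjusted p = 3.1e-10) and -1.12 (adjusted p = 3.29e-08) against fresh cells and by 0.79 between the media (adjusted p = 1.87e-05). The same values for HSPE1 were -1.53 (adjusted p = 1.29e-08), -0.82 (adjusted p = 4.7e-06) and 0.70 (adjusted p = 0.000215). The genes lie side by side in the pig RefSeq annotation, and whether their counts share any reads was not tested.

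The cytosolic chaperonin CCT, a ring that folds actin and tubulin, showed the opposite direction. Of 7 subunits tested, CCT8 not among them, 5 were higher in DMEM/F12 spheroids and all 7 in incubation medium. These are 71.4% and 100%, against 35.1% and 35.8% of all tested genes called higher. None was lower, and the median log2 fold changes were 0.42 and 0.68. CCT3 averaged 141 ± 22.6, 247 ± 22.9 and 293 ± 27.4 CPM (SD, n = 4; 0.80 with adjusted p = 1.99e-05 and 1.05 with adjusted p = 1.42e-06). CCT5 stood at 209.6, 185, 206 and 168 CPM in fresh cells, 239, 266, 276 and 249 in DMEM/F12 and 332, 356, 357 and 297 in incubation medium, 3 levels without overlap (0.42 with adjusted p = 0.000868, 0.80 with adjusted p = 2.31e-06, and 0.38 with adjusted p = 0.00706 between the media). TCP1, the alpha subunit, averaged 125 ± 11.96, 172 ± 9.11 and 193 ± 27.5 CPM (0.46 with adjusted p = 0.0011 and 0.63 with adjusted p = 8.56e-05).

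CCT2 and CCT4 were the subunits not called in DMEM/F12. CCT2 stood at 304, 251, 235 and 267 CPM in fresh cells, 253, 265, 280.0 and 264 in DMEM/F12 and 337, 355, 337 and 317 in incubation medium, so that the first 2 groups overlapped (0.01 with adjusted p = 0.947) and the third lay above both (0.35 with adjusted p = 0.00183 against fresh cells, 0.34 with adjusted p = 0.00838 against DMEM/F12). CCT4 averaged 223, 238 and 276 CPM (0.09 with adjusted p = 0.29 and 0.31 with adjusted p = 0.0024). Between the media CCT4 missed the threshold (0.21 with adjusted p = 0.0548). It passed with DESeq2 (0.21, adjusted p = 0.0257), the replicate block (0.21, adjusted p = 0.0404) or a fit of only the groups compared (0.21, adjusted p = 0.0382). So it did without incubation medium replicate 4 (0.24, adjusted p = 0.0456). CCT7 averaged 124 ± 7.11, 146 ± 12.6 and 199 ± 9.66 CPM (SD, n = 4; 0.24 with adjusted p = 0.0158, 0.68 with adjusted p = 3.07e-06, and 0.44 with adjusted p = 0.00106 between the media), and CCT6A 98.5, 155 and 179 CPM (0.66 with adjusted p = 0.000234 and 0.86 with adjusted p = 2e-05).

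**Figure D4:**
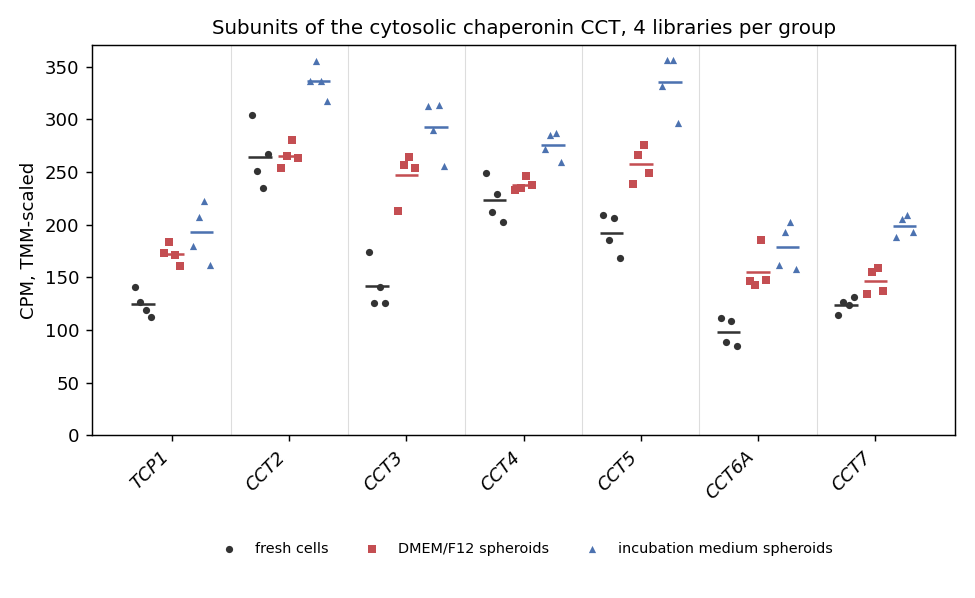
CPM (TMM-scaled, linear axis from 0) of the 7 CCT subunits tested (CCT8 is not among them), 1 point per library with a bar at the mean of 4, for fresh cells (black circles), DMEM/F12 (red squares) and incubation medium spheroids (blue triangles). Incubation medium means are the highest for all 7, and fresh cells overlap DMEM/F12 spheroids in CCT2 and CCT4.

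The heat shock factors, the regulators of this response, changed in opposite directions. HSF1 (ENSSSCG00025057731), the main stress factor, stood at 30.6, 35.5, 30.9 and 37.2 CPM in fresh cells, 45.3, 46.0, 43.1 and 44.7 in DMEM/F12 and 47.2, 41.6, 50.2 and 45.5 in incubation medium spheroids. It was modestly higher in each medium without overlap (log2 fold change 0.42, SE 0.09, adjusted p = 0.000739, and log2 fold change 0.46, SE 0.09, adjusted p = 0.000312). HSF2 (ENSSSCG00025004989), which binds the same elements and acts in development, stood at 73.3, 62.8, 63.8 and 57.2 CPM, 22.0, 20.6, 17.7 and 21.0 CPM and 22.8, 23.9, 22.4 and 22.4 CPM. It was 3.16-fold and 2.81-fold lower (log2 fold change -1.66, SE 0.10, adjusted p = 3.11e-09, and log2 fold change -1.49, SE 0.09, adjusted p = 7.39e-09), also without overlap. HSF1 activity is set mainly by its protein, which was not measured.

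Between the media, 11 of 64 members were higher in incubation medium than in DMEM/F12 spheroids (17.2%, against 12.7% of all tested genes) and 6 were lower (9.38%, against 12.3%). At least 2-fold differences were called upward in 0 members (against 2.06% of all genes) and downward in 3 (4.69%, against 3.38%), namely HSPB1, HSPB8 and DNAJC12. A cochaperone with low counts, DNAJC12 was at 3.66 and 1.14 CPM (-1.67 with adjusted p = 0.00519). With library totals in place of TMM scaling, 9 members were higher and 10 lower, and over all genes the split went from 1791 higher and 1731 lower to 1239 and 2471. The median log2 fold change over all genes was -0.0035 with TMM scaling and -0.097 with library totals. The higher members were HSP90AB1, HSPD1, HSPE1, CCT2, CCT5, CCT7, STIP1, DNAJA3, DNAJC2, DNAJC9 and DNAJC10. The lower ones were HSPB1, CRYAB, HSPB8, HSPB6, DNAJB6 and DNAJC12.

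DNAJC10, a disulfide reductase of the endoplasmic reticulum, stood at 118, 105, 126 and 104 CPM in fresh cells, 97.6, 72.9, 89.3 and 86.4 in DMEM/F12 and 134, 112, 129 and 111 in incubation medium. It was lower than fresh cells in DMEM/F12 alone (-0.39 with adjusted p = 0.00416, against 0.10 with adjusted p = 0.382 in incubation medium), and the direct difference between the media was 0.49 (adjusted p = 0.00329). DNAJA3 and DNAJC9, described above, were higher in incubation medium by 0.42 (adjusted p = 0.00521) and 0.44 (adjusted p = 0.00552). The calls for STIP1, DNAJC2 and DNAJB6 were not stable. STIP1 (0.34 with adjusted p = 0.0282) lost it without DMEM/F12 replicate 1 (0.32, adjusted p = 0.0702), DMEM/F12 replicate 4 (0.30, adjusted p = 0.0849), incubation medium replicate 2 (0.32, adjusted p = 0.0739) or incubation medium replicate 3 (0.31, adjusted p = 0.0747). DNAJC2, a ribosome-bound J protein (0.29 with adjusted p = 0.0343), lost it without any 1 of DMEM/F12 replicates 1, 3 and 4 and incubation medium replicates 1, 2 and 3, at 0.26 to 0.30. DNAJB6 (-0.23 with adjusted p = 0.0496) lost it without any single library of the 8 but incubation medium replicate 3, at -0.20 to -0.26. Of the 14 tested heat shock factor 1 targets, 4 were higher in incubation medium (HSP90AB1, HSPD1, HSPE1 and STIP1) and 2 were lower (HSPB1 and CRYAB). These are 28.6% and 14.3%, against 12.7% and 12.3% of all tested genes. The other 8 were not called, among them HSPA6, whose call depended on the setting as given above. The log2 fold change was -0.10 (adjusted p = 0.593) for HSPH1, 0.02 (adjusted p = 0.931) for HSPA8 and 0.01 (adjusted p = 0.971) for DNAJA1. For DNAJB1 it was -0.31 (adjusted p = 0.0764), with every incubation medium library below every DMEM/F12 library, and DNAJB1 passed with library totals (-0.40, adjusted p = 0.0129) and in a fit of only the groups compared (-0.31, adjusted p = 0.0381).

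**Figure D5:**
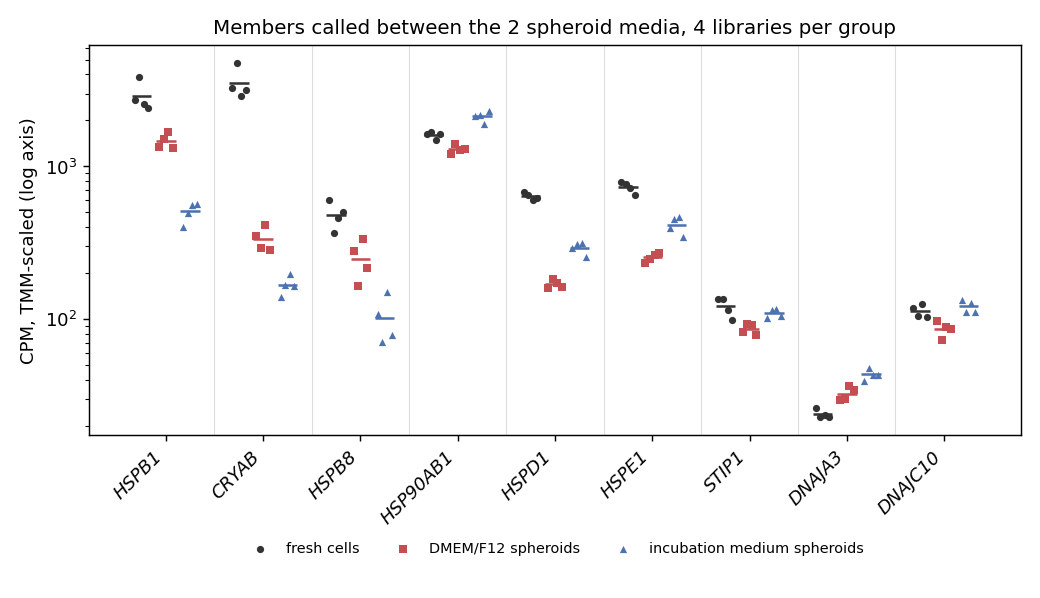
CPM (TMM-scaled, log axis) of 9 of the 17 members called between the media, 1 point per library with a bar at the mean of 4: fresh cells (black circles), DMEM/F12 (red squares) and incubation medium spheroids (blue triangles). HSPB1, CRYAB and HSPB8 step down from fresh cells to DMEM/F12 to incubation medium, and HSPD1 and HSPE1 are lowest in DMEM/F12.

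Other genes of the chaperone pathway, outside the rule, included genes called in each direction. Of 32 listed symbols 24 had a row and were tested: 11 were higher and 8 lower in DMEM/F12 spheroids (45.8% and 33.3%, against 35.1% and 35.7% of all tested genes), and 12 higher and 6 lower in incubation medium (50% and 25%, against 35.8% in each direction). Between the media 4 were higher and 1 lower (16.7% and 4.17%, against 12.7% and 12.3%). Some of these shares lay near the background and others did not. The differences were not tested, and nothing is read from them about the list. The count of 4 went to 2 without any 1 of DMEM/F12 replicates 1, 2 and 4 and incubation medium replicate 3, and to 7 with the replicate block. The polyubiquitin gene UBB, a heat shock factor target, fell from 10407 ± 1692 to 3164 ± 48.5 and 2730.3 ± 156 CPM (SD, n = 4; log2 fold change -1.72 with adjusted p = 4.04e-09 and -1.93 with adjusted p = 1.45e-09). The HSP70 partner ST13 averaged 544, 343 and 408 CPM (-0.67 with adjusted p = 1.59e-05 and -0.41 with adjusted p = 0.000981). SQSTM1, the autophagy receptor p62, was higher (0.74 with adjusted p = 8.41e-05 and 0.53 with adjusted p = 0.00145), as was VCP, the segregase of ubiquitinated proteins (0.83 with adjusted p = 6.55e-07 and 0.77 with adjusted p = 1.31e-06).

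A further few were named after their values were seen. PTGES3, the HSP90 co-chaperone that stabilises the client-bound form, rose from 25.8 to 85.4 and 103 CPM (1.72 with adjusted p = 3.27e-07 and 1.99 with adjusted p = 7.91e-08). The prefoldin subunits PFDN2, PFDN4, PFDN6 and VBP1, which hand actin and tubulin to CCT, were higher in both media. Their log2 fold changes in DMEM/F12 were 0.73, 1.49, 0.77 and 1.04, and in incubation medium 0.83, 1.70, 1.16 and 1.20. TOMM34, which carries precursors to the mitochondrial import gate, differed between the media by 1.02 (adjusted p = 0.000272), the highest value of this list, and the steroid receptor co-chaperone FKBP5 by -0.82 (adjusted p = 0.00815).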

How the data were processed

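RNA of 12 libraries was read by 3′ sequencing after oligo-dT priming, tagmentation and PCR, per the labels' protocols. The submitters' processing notes name fastp 0.24.0, STAR 2.7.11, SAMtools 1.22.1, featureCounts and Subread 2.1.1; the genome build, annotation, strand setting and handling of reads with several matches are not given in the sources used here. The authors deposited expected counts per gene, of which 19.1 to 20.5% of the nonzero ones per library were not whole, and CPM, which equal the deposited count over the library's total to within 5e-06. Of the 71 members, 25 had whole counts in every library. Of the 30461 gene rows, 56.5% had no symbol; the 92 spike-in rows were left out, and held at most 0.00061% of a library's counts.

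Counts were rounded and tested with edgeR 4.0.16 (R 4.3.3; filterByExpr, TMM, quasi-likelihood F-tests) in 1 fit of 12 libraries with group means, and Benjamini-Hochberg adjustment ran over 14070 genes. The printed CPM use TMM-scaled library sizes and differ from the deposited ones. Alternatives were other scalings, DESeq2 1.42.0, other filters, a replicate block, a fit of only the groups compared, rounding down, whole counts only, thinning to 5044997 counts and leaving out each library. The script was tested on simulated data. Replicate pairs differed by more than sampling noise (5.44 to 15.5 for chi-square over its degrees of freedom). Libraries with the same number in the labels deviated together from their group means (r = 0.196 to 0.516 over the 12 pairs). The numbers thus pair the libraries, by this check of the data alone, which cannot tell a shared animal from shared handling. The main fit did not use this pairing, and its p-values leave it out. Only the replicate block takes it in.

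Genes named with values were HSPA6, fixed genes (18 of 21 had a row) and, per comparison, up to 6 called members with the largest change in each direction among those with a mean of at least 20 CPM; 31 genes in all. Other members named are examples of their role or were chosen after their values were seen. The members and lists were chosen with earlier results of these data known. Lists of markers covered multiciliated, secretory, epithelial, smooth muscle, stromal, leukocyte and endothelial cells and immediate early genes. Summed in fresh cells, DMEM/F12 and incubation medium spheroids, the secretory list held 18938 to 29977, 984 to 2015 and 963 to 2010 CPM (OVGP1 and SLPI lower, MUC1 higher in both media than in fresh cells), the leukocyte list 6.82 to 9.75, 1.44 to 3.83 and 0.269 to 2.67 CPM, and the endothelial list 39.7 to 55.8, 136 to 251 and 91.1 to 148 CPM (CDH5 and KDR higher and PECAM1 lower in both media, VWF not tested). A planned count of promoter motifs and a comparison of protein sequences were not run, and no sequences are shown.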

Additional observations from a re-analysis of the deposited data

Results flagged for a closer look

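In 93 sets of 4 libraries (31 named genes in 3 groups), 2 held a library far from the other 3 for the range of its group; chance gives about 1 in 20 such sets. DNAJA1 was at 989 CPM in fresh replicate 2, against 745 to 776 CPM in the other fresh cell libraries. DNAJC5 was at 60.2 CPM in incubation medium replicate 4, against 57.5 to 57.9 CPM in the other 3, a narrow group in which a small gap stands out.

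HSP90AB1 differed between the spheroid media, lower than fresh cells in all 4 DMEM/F12 libraries and higher in all 4 incubation medium libraries. The direct difference was a log2 fold change of 0.71 (edgeR, adjusted p = 2.87e-05).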

How the results depend on the processing

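Of 31 named genes, 30 were called in DMEM/F12 against fresh cells, and 28 of these calls held in every alternative that tested the gene. So did 29 of 29 in incubation medium and 11 of 13 between the media. The exceptions were CCT7, which with upper quartile scaling missed the threshold in DMEM/F12 (log2 fold change 0.16, adjusted p = 0.09), DNAJB6 and STIP1. Among the 19 alternatives, the setting with whole counts only did not test most named genes. HSPA6, HSPA8, DNAJB1 and CRYAB were among those it left out, so their calls were not checked there. The 7 members with low counts could not be tested at this depth, and 2 of them had no count in any library.

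The counts of called members held within 1.5 times except in 2 settings. Only genes with whole counts in every library left 9 higher and 8 lower in DMEM/F12, 8 and 7 in incubation medium, and 3 and 2 between the media, since fewer genes were tested. Library totals gave 10 lower between the media, and the cause was not tested. Leaving out 1 library gave 24 to 27 higher and 26 to 27 lower in DMEM/F12, 28 to 32 and 23 to 26 in incubation medium, and 9 to 16 and 5 to 7 between the media.

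The median of the members in DMEM/F12 was 0.23 with library totals, 0.073 with upper quartile scaling, 0.23 without the filter, 0.45 with whole counts only and 0.097 to 0.193 with 1 library left out (lowest without fresh replicate 4). In incubation medium it was 0.15 with upper quartile scaling, 0.31 without the filter, 0.14 with whole counts only, 0.17 with thinned counts and 0.171 to 0.29 with 1 library left out (lowest without fresh replicate 4). Between the media it was -0.030 with library totals, -0.016 with whole counts only and 0.042 to 0.115 with 1 library left out.

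Among the named genes, changes of sign were limited to values that were not called. CCT2 in DMEM/F12 was -0.073 with upper quartile scaling, -0.021 with a mean of at least 10 counts, -0.0064 with thinned counts and -0.042 to 0.086 with 1 library left out. Between the media, library totals gave -0.071 for HSPA8, -0.079 for HSP90AA1, -0.082 for DNAJA1 and -0.0498 for HSF1. Upper quartile scaling gave -0.0072 for HSP90AA1 and -0.011 for DNAJA1, no filter -0.00043 for DNAJA1, and thinned counts -0.039 for HSF2. With 1 library left out the ranges were -0.048 to 0.115 for HSPA8, -0.061 to 0.078 for HSP90AA1, -0.0797 to 0.098 for DNAJA1, -0.141 to 0.457 for DNAJB13, -0.151 to 0.035 for DNAJC5 and -0.165 to 0.011 for HSPH1.

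With the replicate number as a block, 27 members were higher and 27 lower in DMEM/F12, 31 and 26 in incubation medium, and 16 and 8 between the media, where the block also raised the calls over all genes, from 1791 higher and 1731 lower to 2329 and 2284. Beside HSPA14, AHSA1, CCT4, HSPA4L and DNAJC6, it changed the calls of DNAJB5 and DNAJB12 between the media (-0.51, adjusted p = 0.0213, and 0.25, adjusted p = 0.0421), of DNAJC16 in DMEM/F12 (0.39, adjusted p = 0.0339) and of DNAJC12 in incubation medium (-0.97, adjusted p = 0.0377), and no other call of a member. Without the block DNAJB5 narrowly missed the threshold between the media (-0.51, adjusted p = 0.0527). It also passed with library totals (adjusted p = 0.0172), upper quartile scaling (0.0397), DESeq2 (0.0412), no filter (0.0384) and a mean of at least 10 counts (0.04998). So it did without DMEM/F12 replicate 1 (adjusted p = 0.0341) or incubation medium replicate 3 (adjusted p = 0.0482).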

Other observations

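DNAJC24 and DNAJC6, J-domain C members not described in the report, changed by at least 2-fold in DMEM/F12 and were named after their values were seen; DNAJC24 did so in incubation medium too. DNAJC24, which serves diphthamide synthesis on an elongation factor, averaged 8.39 ± 0.743 CPM (SD, n = 4) in the fresh libraries, 18.2 ± 1.77 in DMEM/F12 and 20.7 ± 1.90 in incubation medium spheroids. Its log2 fold changes against fresh cells were 1.12 (adjusted p = 1.58e-06) and 1.31 (adjusted p = 3.15e-07). DNAJC6, the auxilin that uncoats clathrin vesicles, averaged 3.48 ± 0.557, 9.12 ± 1.99 and 6.54 ± 1.56 CPM, with 1.38 (adjusted p = 7.17e-05) and 0.91 (adjusted p = 0.00269). Between the media DNAJC6 missed the threshold (-0.47 with adjusted p = 0.102). It passed with the replicate block (-0.48, adjusted p = 0.0407), library totals (-0.56, adjusted p = 0.0488) or thinned counts (-0.73, adjusted p = 0.0315).

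By compartment, of the 5 mitochondrial members HSPD1 and HSPE1 were lower in both media, while DNAJA3, DNAJC11 and DNAJC15 were higher in both. DNAJC11, of the cristae junctions, averaged 27.3 ± 2.32, 38.2 ± 3.67 and 37.3 ± 1.76 CPM (SD, n = 4; 0.48 with adjusted p = 0.000366 and 0.45 with adjusted p = 0.000679). Of the endoplasmic reticulum members named at the start, HSPA13 and DNAJC10 were lower and DNAJB14 was higher in DMEM/F12 (0.30 with adjusted p = 0.00816 for DNAJB14). In incubation medium HSPA13 was lower, while DNAJB12 (0.41 with adjusted p = 0.00239), DNAJB14 (0.25 with adjusted p = 0.0259) and DNAJC1 (0.25 with adjusted p = 0.0283) were higher. The DNAJB14 call in incubation medium was lost without fresh replicate 4 (0.17, adjusted p = 0.0824). The DNAJC1 call was lost without fresh replicate 2 (0.21, adjusted p = 0.0838), fresh replicate 4 (0.23, adjusted p = 0.0611) or incubation medium replicate 3 (0.23, adjusted p = 0.0641).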
